A study of Callithrix jacchus with 20 samples.

Results

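POU5F1, NANOG, SOX2, SALL4, LIN28A, LIN28B, ZFP42, DPPA2, DPPA4 and UTF1 belong to the gene network that keeps stem cells pluripotent. Here they were followed in cells of the common marmoset (Callithrix jacchus) on the way from induced pluripotent stem cells (cjiPSCs) to primordial germ cell-like cells (cjPGCLCs). The members were chosen by symbol for their known role, with earlier results of these data known but with no measured value in the rule, and they are 10 of the 25102 genes in the deposited count tables. All 10 symbols were found, and all 10 were among the 15797 genes left for testing by a filter on low counts.

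POU5F1 (OCT4), SOX2 and NANOG are transcription factors that bind many enhancers together and sustain their own expression, and SALL4 is a zinc finger factor that works with them. LIN28A and LIN28B are RNA-binding proteins that block the maturation of let-7 microRNAs. DPPA2 and DPPA4 are chromatin proteins that form a pair, ZFP42 (REX1) is a zinc finger protein long used as a marker of the undifferentiated state, and UTF1 is a chromatin-associated protein of undifferentiated cells. Primate primordial germ cells (PGCs) are known to keep POU5F1 and NANOG and to use SOX17 where pluripotent cells use SOX2.

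All libraries were taken to come from DPZ_cjiPSC#2, the line that the study's text gives where it states no other. The text also reports other lines kept in TESR. DPZ_cjiPSC#2 was reprogrammed from fibroblasts with episomes carrying human OCT4, SOX2, KLF4, L-MYC and LIN28 and a hairpin against p53. Undifferentiated cjiPSCs were kept without feeder cells in the commercial medium TESR or in cjPSCM, which contains CHIR, A419259, IWR-1, vitamin C, LIF, TGFβ and FGF2. Precursors of mesendoderm (pre-ME) were made from cells of each medium by pre-induction for 1 day with the WNT agonist CHIR and the ROCK inhibitor Y-27632, with activin A (pre-ME + ActA) or without it (pre-ME - ActA). Sorted cells came from pre-ME of cultures in a medium that their titles spell cjEPSCM, taken here as cjPSCM. These pre-ME were aggregated into embryoid bodies with BMP4, LIF, SCF and EGF, and double-positive cells (cjPGCLCs) and double-negative cells (somatic cells) were sorted from them on day 4. The sample titles give INTa6 and EpCAM as the sort markers, the cell type labels give CXCR4 and EpCAM, and the study's text gives INTα6 and CXCR4. Each of the 10 conditions had 2 libraries, labelled as biological replicates. The 20 libraries are taken to stand for 1 line, so differences between lines or animals were not measured. OCT4, SOX2 and LIN28 of the episomes are also members, and the study's PCR found the episomes lost from this line by the passage it tested. Whether RNA of an episome was present in these libraries was not tested.

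Between 4784964 and 22067099 reads were counted on genes per library, with a median of 11599813. The replicates of cjiPSCs in cjPSCM stood farthest apart, with an SD over genes of the log2 difference of 0.959, followed by cjiPSCs in TESR at 0.619, against 0.311 to 0.566 in the other 8 conditions. Of 10 PGC markers, 7 were called higher in cjPGCLCs than in somatic cells with ActA and 7 without it, with a median log2 fold change of 2.26 and 3.28. That list includes the sort markers CXCR4, ITGA6 and EPCAM, which the sort itself chose. NANOS3, a germline gene, had 3 counts or fewer in every somatic library, and CD38 had 3 or fewer in every sorted library. Among 11 mesoderm markers, TBXT (BRACHYURY), a defining gene of mesendoderm, had 3 counts or fewer in every library of cjPSCM pre-ME. The same held for cjiPSCs in cjPSCM and for all sorted cells, so it was not particular to pre-ME. EOMES, another of the 11, rose from cjPSCM cjiPSCs to pre-ME + ActA (log2 fold change 3.19, edgeR adjusted p = 0.00591). It was the 1 marker called higher there, with 2 lower, and without ActA 0 were higher and 4 lower.

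Levels below are counts divided by the authors' size factor of the library (normalised counts), given for replicates 1 and 2 in that order. Fold changes are log2 values fitted by edgeR to the raw counts of all 20 libraries, with a standard error (SE). A member was called changed where its p, adjusted over all 15797 genes, was under 0.05. The share of all tested genes called in the same comparison and direction is given beside each count of members from this fit. Comparisons that use the same libraries are not independent of each other, and in bulk RNA fewer cells with a transcript and less transcript per cell cannot be told apart.

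**Figure D1:**
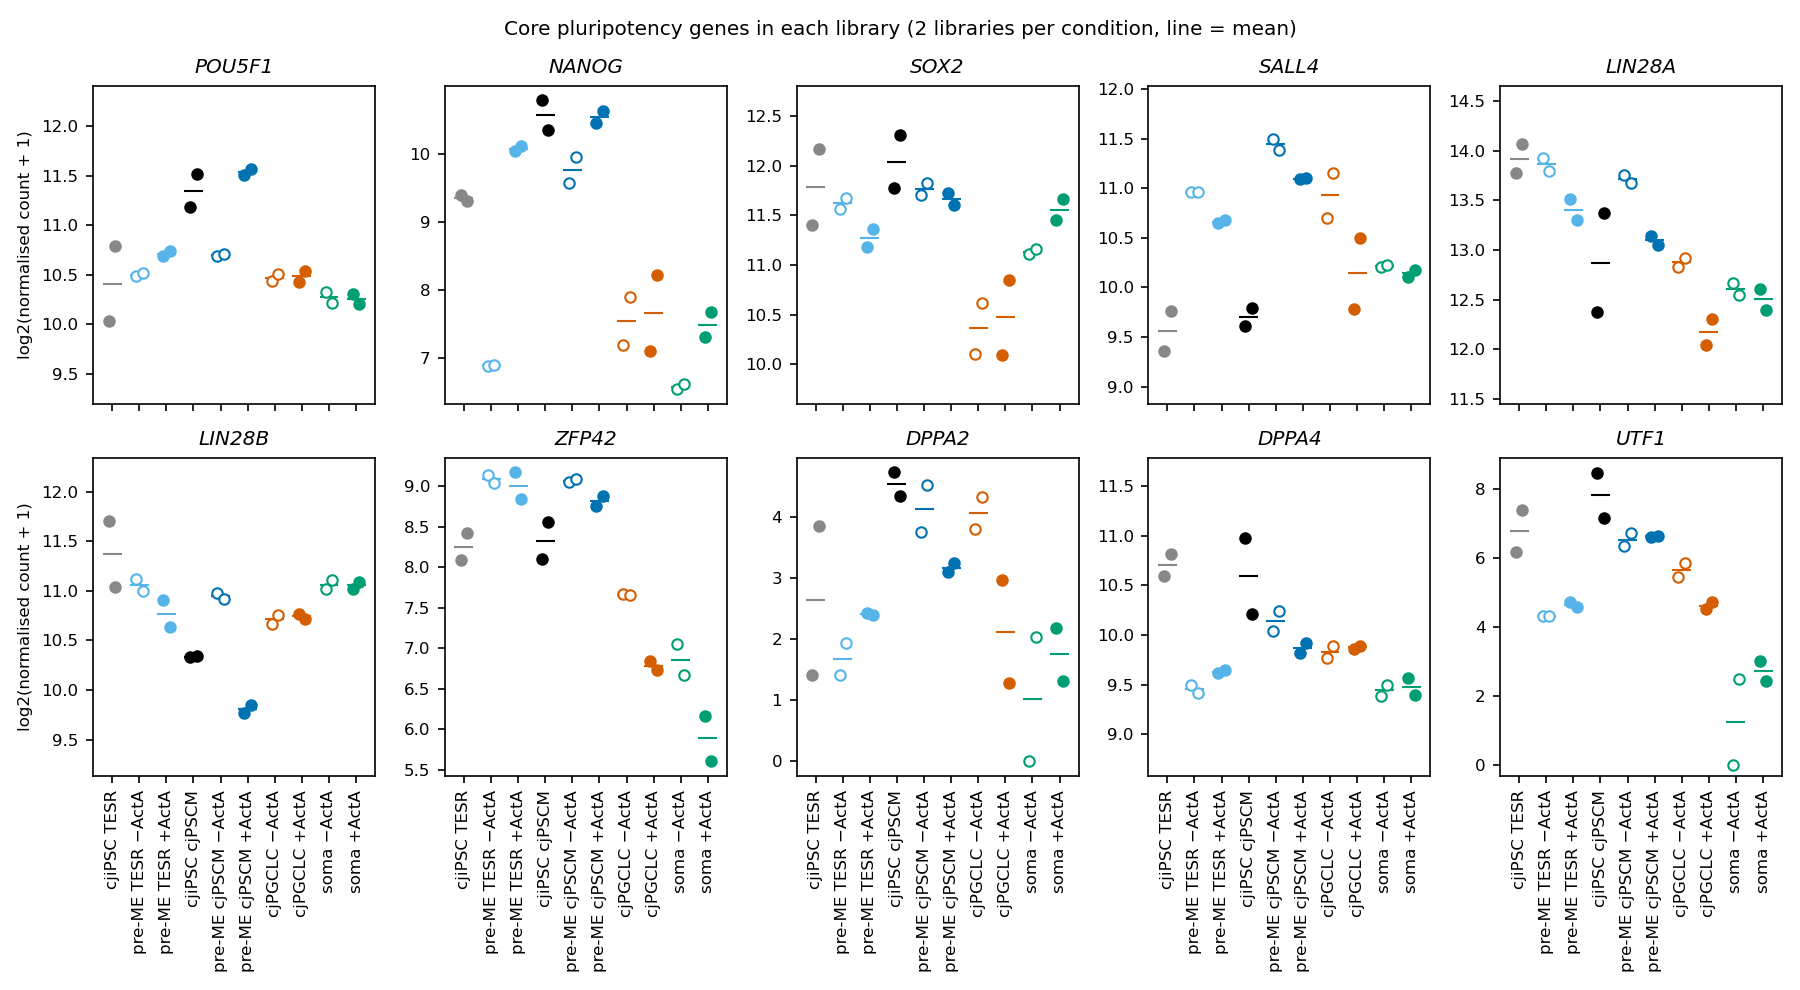
Normalised count of each member in each library, as log2(count + 1), by condition; points are libraries (open without ActA), lines are means of 2 libraries, and each panel has its own log2 axis. NANOG in TESR pre-ME without ActA lies at 117 and 119, far below the other 5 undifferentiated or pre-ME conditions, and UTF1 is lowest in the 4 somatic libraries.

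Across the 10 conditions the members differed in how far they moved. POU5F1 and DPPA4 had the flattest profiles. The highest mean of POU5F1, 2975 ± 85.1 (SD, n = 2) in cjPSCM pre-ME + ActA, was 2.43 times its lowest, 1223 ± 55.7 in somatic cells with ActA. DPPA4 spanned 2.40-fold, LIN28B 3.03-fold, SOX2 3.20-fold, LIN28A 3.36-fold and SALL4 3.65-fold between the highest and lowest condition mean. ZFP42 spanned 9.18-fold and NANOG 16.1-fold. UTF1 had the widest range, from 250 ± 151 in cjiPSCs in cjPSCM down to 2.32 ± 3.28 in somatic cells without ActA. DPPA2 was scarcely detected, with 0 to 27 raw counts per library, and its values carry large counting error throughout.

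The members did not share one order of conditions. SOX2, NANOG, DPPA2 and UTF1 were highest in cjiPSCs in cjPSCM, LIN28A, LIN28B and DPPA4 in cjiPSCs in TESR, and POU5F1, SALL4 and ZFP42 in a pre-ME condition. SALL4 was lowest in the undifferentiated cells, with 763 ± 151 in TESR and 836 ± 73.7 in cjPSCM (SD, n = 2). LIN28B had its lowest level in cjPSCM pre-ME + ActA (897 ± 32.1), the same condition in which POU5F1 was highest. Neighbours in these orders often did not differ beyond their replicates. Of 9 neighbouring pairs of conditions, the libraries overlapped in 7 for POU5F1, 3 for NANOG, 6 for SOX2, 4 for SALL4, 4 for LIN28A, 5 for LIN28B, 5 for ZFP42, 8 for DPPA2, 6 for DPPA4 and 5 for UTF1. On a second scale, TMM-normalised CPM, each member but LIN28B had the same order, and for LIN28B 8 of 10 ranks were the same.

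Reads on no feature made up 10.6%, 13.3% and 12.2% in both TESR libraries and in replicate 1 of cjPSCM cjiPSCs, 19.3% in replicate 2 of the latter, and 17.2% to 23.2% in the other 16 libraries. Their part in the differences between cjiPSCs and other conditions was not tested.

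The first comparison asks how the medium changes the network before any induction. In cjPSCM compared with TESR, POU5F1 and NANOG were up-regulated and both LIN28 genes were down-regulated, whereas SOX2, SALL4, ZFP42 and DPPA4 did not pass the test. POU5F1 stood at 2323 and 2926 in cjPSCM and at 1049 and 1765 in TESR, a log2 fold change of 0.89 ± 0.17 (SE; edgeR adjusted p = 0.000599). NANOG stood at 1760 and 1300 against 669 and 633, a change of 1.21 ± 0.26 (edgeR adjusted p = 0.00173). For both genes each library in cjPSCM lay above each library in TESR. The 2 RNA-binding proteins moved the other way.

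LIN28A was at 5314 and 10593 in cjPSCM and 13998 and 17130 in TESR (-0.99 ± 0.22, edgeR adjusted p = 0.00189). LIN28B was at 1288 and 1294 against 3337 and 2098 (-1.10 ± 0.17, edgeR adjusted p = 7.88e-05). UTF1 and DPPA2, both low, were also called higher. UTF1 had 357 and 144 in cjPSCM and 72.2 and 168 in TESR, so its libraries overlapped (1.11 ± 0.40, edgeR adjusted p = 0.037). DPPA2 rested on 40 raw counts against 12, a ratio of 4.77 with a 95% counting interval of 2.46 to 10 (edgeR adjusted p = 0.0301). Such intervals cover counting error only. In all, 4 members were higher and 2 lower, beside 18.1% of all genes higher and 18.1% lower.

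Single libraries weighed on these values. Without TESR replicate 1 the change of POU5F1 was 0.57 and that of LIN28B -0.70, both still called, while those of UTF1 (0.59) and DPPA2 (0.75) were not. Without cjPSCM replicate 1 LIN28A was at -0.59 and still called, UTF1 at 0.29 and DPPA2 at 1.79, both not called. Without cjPSCM replicate 2 LIN28A was at -1.55, and without TESR replicate 2 UTF1 was at 1.78 and DPPA2 at 3.66. In these fits the library left alone in its condition was taken to vary like the rest. Fitted to the 4 libraries of this comparison alone, POU5F1 (0.90, edgeR adjusted p = 0.0864), LIN28A (-0.97, edgeR adjusted p = 0.112), UTF1 (1.06, edgeR adjusted p = 0.199) and DPPA2 (1.81, edgeR adjusted p = 0.228) were not called. DESeq2 on all libraries did not call DPPA2 either (1.77, adjusted p = 0.125). Markers of other cells moved with the medium. The summed level of 8 endoderm markers was 2280 to 2874 in cjPSCM and 156 to 198 in TESR, with FOXA1, CER1 and AFP at 3 counts or fewer in both, and 2 of 5 tested were called, each higher. That of 7 fibroblast markers was 9598 to 15093 against 2790 to 4019, with 3 higher and 1 lower. Most of that sum was THY1, a surface protein also known from pluripotent cells (mean 9978 in cjPSCM and 1059 in TESR). The means of DCN (1205 against 113), LUM (343 against 25.3) and POSTN (41.8 against 36.7) were also higher in cjPSCM. Those of the collagens COL1A1 (689 against 1743), COL1A2 (46.6 against 301) and COL3A1 (41.2 against 127) were lower. The summed level of 8 amnion-like and surface ectoderm markers was 1370 to 1718 against 4667 to 5751, with 4 of 7 tested called, each lower. Their part in the values of the members was not tested.

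**Figure D2:**
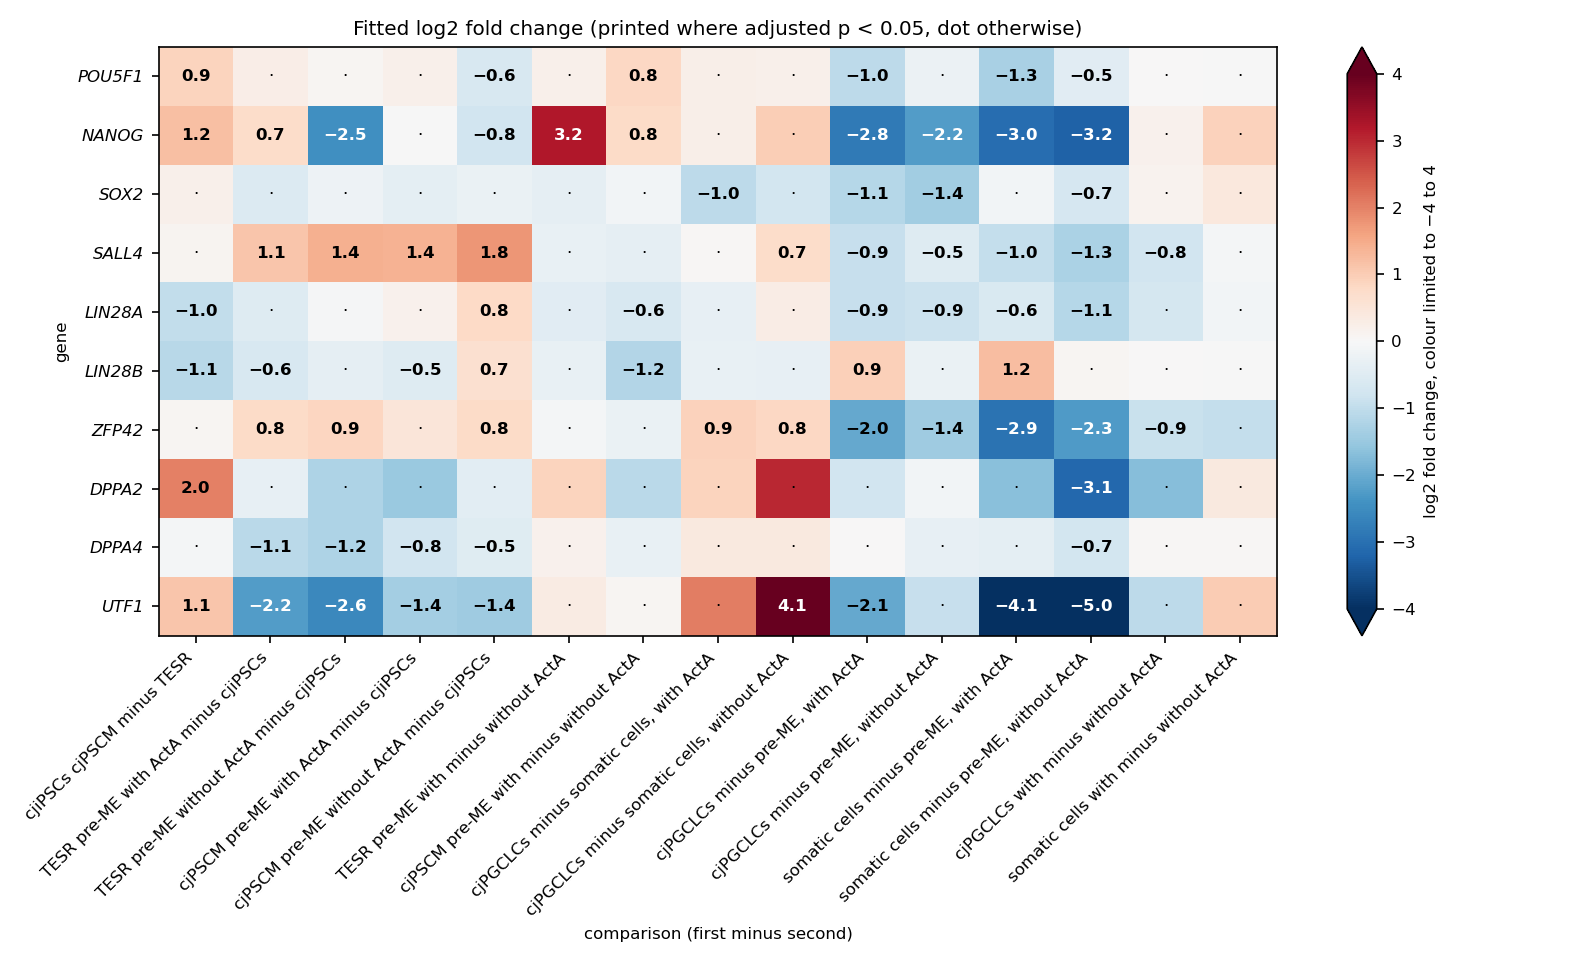
Fitted log2 fold change of each member (rows) in each of 15 comparisons (columns, first condition minus second), printed where the edgeR adjusted p was under 0.05 and a dot otherwise; colours are limited to -4 to 4. SALL4 is positive in all 4 columns of pre-ME minus cjiPSCs while UTF1 and DPPA4 are negative there, and the 4 columns of sorted cells minus pre-ME are mostly negative; fitted values of UTF1 and DPPA2 against somatic cells rest on 0 to 4 counts per somatic library.

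The second set of comparisons follows the members through the day of pre-induction. SALL4 rose in all 4 pre-inductions, the 1 member called higher in each. It went from 656 and 870 in TESR cjiPSCs to 1605 and 1633 in pre-ME + ActA (1.11 ± 0.19, edgeR adjusted p = 0.00034) and to 1998 and 1997 in pre-ME - ActA (1.41 ± 0.19, edgeR adjusted p = 3.91e-05). From cjPSCM it rose from 784 and 888 to 2179 and 2192 with ActA (1.41 ± 0.19, edgeR adjusted p = 0.000104) and to 2895 and 2678 without it (1.77 ± 0.19, edgeR adjusted p = 6.22e-06). No pre-ME library overlapped a cjiPSC library of the same medium. Both comparisons of a medium share its cjiPSC libraries.

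DPPA4 and UTF1 were called lower in all 4. DPPA4 fell from 1547 and 1797 in TESR to 783 and 798 with ActA (-1.07 ± 0.18, edgeR adjusted p = 0.0003) and to 719 and 680 without it (-1.24 ± 0.18, edgeR adjusted p = 7.79e-05). UTF1 fell from 72.2 and 168 to 25.7 and 22.8 with ActA (-2.24 ± 0.43, edgeR adjusted p = 0.000889) and to 19.2 and 19.2 without it (-2.57 ± 0.44, edgeR adjusted p = 0.000306). In TESR, then, the libraries of both genes separated cleanly. In cjPSCM the starting replicates differed widely, at 2017 and 1181 for DPPA4 and 357 and 144 for UTF1. DPPA4 there reached 903 and 963 with ActA (-0.77 ± 0.18, edgeR adjusted p = 0.00751) and 1053 and 1206 without it (-0.47 ± 0.18, edgeR adjusted p = 0.0466). UTF1 reached 96.8 and 99.7 with ActA (-1.35 ± 0.40, edgeR adjusted p = 0.0268) and 80.8 and 105 without it (-1.42 ± 0.39, edgeR adjusted p = 0.00987). These 4 calls from cjPSCM depended on cjiPSC replicate 1, the higher of the pair. Without it DPPA4 was at -0.31 and -0.01 and UTF1 at -0.52 and -0.59, none of them called. DPPA4 also lost its call without pre-ME + ActA replicate 1 (-0.73) and without either library of pre-ME - ActA (-0.36 and -0.56), and it was at -0.82 without cjiPSC replicate 2. UTF1 lost it without either library of pre-ME + ActA (-1.34 and -1.37) and without pre-ME - ActA replicate 1 (-1.22).

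ZFP42 rose in 3 of the 4 pre-inductions. In TESR it went from 270 and 342 to 575 and 457 with ActA (0.77 ± 0.18, edgeR adjusted p = 0.00336) and to 563 and 525 without it (0.85 ± 0.18, edgeR adjusted p = 0.00152). From cjPSCM it went from 272 and 377 to 529 and 541 without ActA (0.77 ± 0.18, edgeR adjusted p = 0.00366). With ActA it stood at 432 and 469, a difference of 0.50 ± 0.18 that did not pass the test (edgeR adjusted p = 0.0701), but did at 0.72 without cjiPSC replicate 2. The call in TESR with ActA was lost without pre-ME replicate 1 (0.60).

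NANOG, POU5F1 and the LIN28 genes moved by condition. Without ActA, NANOG fell in TESR cells from 669 and 633 to 117 and 119 (-2.46 ± 0.28, edgeR adjusted p = 7.49e-06), whereas with ActA it stood at 1052 and 1106 (0.74 ± 0.26, edgeR adjusted p = 0.037). That small rise was lost when any 1 of the 4 libraries was left out (0.68 to 0.80). In cjPSCM cells NANOG stood at 1406 and 1581 with ActA, within the range of the cjiPSCs, and fell to 758 and 988 without ActA (-0.78 ± 0.26, edgeR adjusted p = 0.0254). The latter call was lost without cjiPSC replicate 1 (-0.53) or pre-ME replicate 1 (-0.59). POU5F1 was called only in cjPSCM without ActA, where it fell to 1645 and 1668 (-0.63 ± 0.17, edgeR adjusted p = 0.00795), and this was just lost without pre-ME replicate 1 (-0.60, adjusted p = 0.0503).

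In the same condition LIN28A rose to 13858 and 13121 (0.80 ± 0.22, edgeR adjusted p = 0.00827) and LIN28B to 2017 and 1937 (0.65 ± 0.17, edgeR adjusted p = 0.00616). The value for LIN28A was 0.40 and not called without cjiPSC replicate 1, and 1.36 without cjiPSC replicate 2. With ActA LIN28B fell, from cjPSCM to 874 and 920 (-0.51 ± 0.17, edgeR adjusted p = 0.0462) and from TESR to 1923 and 1587 (-0.63 ± 0.17, edgeR adjusted p = 0.00768). Both of these changes were small and fragile. The first was lost without cjiPSC replicate 1 (-0.50) or either pre-ME library (-0.48 and -0.54), and the second without cjiPSC replicate 1 (-0.23) or pre-ME replicate 2 (-0.49). SOX2 was not called in any pre-induction, but without cjiPSC replicate 1 it was called in TESR with ActA, at -0.87.

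Fitted to the libraries of the comparison alone, 3 of the 4 calls from cjPSCM with ActA were lost (LIN28B, DPPA4 and UTF1), and 7 of the 8 without ActA, all but SALL4, with similar fold changes. In TESR with ActA LIN28B was lost (-0.61, edgeR adjusted p = 0.135).

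Counted by comparison, 3 members rose and 3 fell in TESR with ActA, beside 17.3% and 17.1% of all genes. In TESR without ActA 2 rose and 3 fell, beside 17.4% and 19.2%. From cjPSCM with ActA 1 rose and 3 fell, beside 7.42% and 10.3%, and without ActA 4 rose and 4 fell, beside 17.9% and 20.1%. Beyond the study's threshold of 2 on the log2 scale were UTF1 in both TESR comparisons and NANOG in TESR without ActA. The difference between the media was tested itself. Samples of TESR pre-ME are numbered apart from all others in the series, and what this stands for is not labelled. Its part in these differences was not tested. With ActA none of the members was called by edgeR (6.20% of all genes called, 1 member at an unadjusted p under 0.05 and 0 by DESeq2). Without ActA 2 members were called, beside 6.54% of all genes. NANOG fell less from cjPSCM than from TESR, by 1.68 ± 0.38 (edgeR adjusted p = 0.0133), and the change of LIN28B was higher from cjPSCM by 1.00 ± 0.23 (edgeR adjusted p = 0.017). Each was lost when single libraries were left out. For NANOG these were TESR cjiPSC replicate 1 (1.61), cjPSCM pre-ME replicate 2 (1.49) and either TESR pre-ME library (1.68 and 1.70), and for LIN28B TESR cjiPSC replicate 1 (0.59) and TESR pre-ME replicate 2 (0.95).

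**Figure D3:**
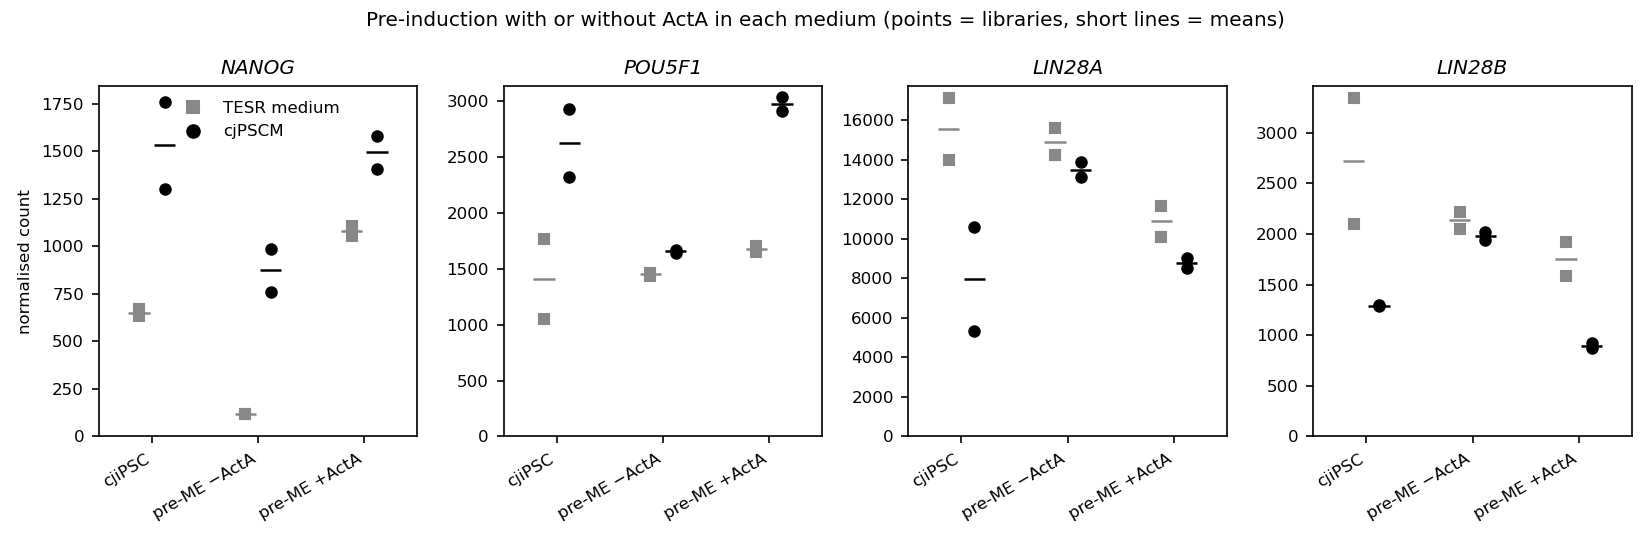
Normalised counts (linear axis from 0) of NANOG, POU5F1, LIN28A and LIN28B in cjiPSCs and in pre-ME without and with ActA; squares are TESR libraries, circles cjPSCM libraries and short lines means. In TESR without ActA both NANOG libraries lie near 118 while POU5F1 stays near 1449, and with ActA LIN28B lies near 897 in cjPSCM.

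The role of ActA was compared directly in pre-ME, where the titles of a medium's libraries differed only in this factor and the replicate number. No label tells whether these libraries shared a day or culture. In TESR cells NANOG was the 1 member called in the fit to all 20 libraries. It stood at 1052 and 1106 with ActA and at 117 and 119 without it (3.19 ± 0.28, 95% interval 2.59 to 3.79, edgeR adjusted p = 2.05e-06), beside 5.63% of all genes higher. No member was called lower by edgeR in that fit (3.20% of all genes), with 0 at an unadjusted p under 0.05 and 0 by DESeq2. Fitted to the libraries of this comparison alone, members besides NANOG were called, as counted further below. Both libraries with ActA lay above both without it for 5 of the 10 members, beside 34.2% of all tested genes. They lay below for 4, beside 32.1%. The NANOG values were tight, with an SD of 38.0 with ActA and 1.40 without it. Its change was 3.16 to 3.23 in the fits without a library. POU5F1 in the same libraries stood at 1647 and 1706 with ActA and 1435 and 1463 without it. Its change of 0.21 did not pass the test (95% interval -0.14 to 0.56, edgeR adjusted p = 0.577). The ratio of NANOG to POU5F1 counts within a library was therefore 0.639 and 0.648 with ActA and 0.0815 and 0.0812 without it, the latter close to that of somatic cells without ActA (0.0717 and 0.0821).

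In cjPSCM cells 2 members were higher with ActA and 2 lower, beside 11.4% and 9.54% of all genes. POU5F1 stood at 2915 and 3035 with ActA and 1645 and 1668 without it (0.83 ± 0.17, edgeR adjusted p = 0.00338). LIN28B stood at 874 and 920 against 2017 and 1937 (-1.16 ± 0.17, edgeR adjusted p = 0.000238). Neither of these was lost in any fit that left out a library. NANOG (1406 and 1581 against 758 and 988) and LIN28A (9025 and 8511 against 13858 and 13121) also did not overlap. Their changes of 0.76 ± 0.26 (edgeR adjusted p = 0.0474) and -0.64 ± 0.22 (edgeR adjusted p = 0.0449) were lost when any 1 of the 4 libraries was left out, with 0.56 to 0.94 and -0.69 to -0.59.

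The effect of ActA on NANOG differed between the media by -2.44 ± 0.38 (edgeR adjusted p = 0.0114), in a test in which 0.399% of all genes were called. The call was lost without cjPSCM pre-ME + ActA replicate 1 (-2.36), cjPSCM pre-ME - ActA replicate 2 (-2.25) or TESR pre-ME - ActA replicate 2 (-2.47). For LIN28B the difference of -0.88 ± 0.23 did not pass (edgeR adjusted p = 0.112), and DESeq2 called it (-0.86, adjusted p = 0.0275). Other lineages moved with ActA. The summed mesoderm markers were 2642 to 2901 with ActA and 946 to 951 without it in TESR, with 6 of 11 called, each higher, and 3001 to 3084 against 631 to 806 in cjPSCM, with 3 called, each higher. In cjPSCM most of the sum was KDR, a receptor (mean 2738 with ActA and 477 without it). Their part in the values of NANOG was not tested.

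The next comparisons follow the members from cjPSCM pre-ME to the sorted cells of day 4. NANOG and ZFP42 showed the greatest loss among the well detected members, and they fell in cjPGCLCs as well as in somatic cells. NANOG went from 1406 and 1581 in pre-ME + ActA to 136 and 297 in cjPGCLCs (-2.81 ± 0.29, edgeR adjusted p = 1.06e-06) and to 158 and 203 in somatic cells (-3.05 ± 0.30, edgeR adjusted p = 6.25e-07). Without ActA it went from 758 and 988 to 146 and 238 in cjPGCLCs (-2.23 ± 0.28, edgeR adjusted p = 1.39e-05) and to 92.2 and 97.5 in somatic cells (-3.22 ± 0.32, edgeR adjusted p = 8.35e-07). In the 8 sorted libraries NANOG thus lay below each library of cjPSCM cjiPSCs or pre-ME. The mean in cjPGCLCs was 14.2% of that in cjPSCM cjiPSCs with ActA and 12.5% without it.

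ZFP42 went from 432 and 469 to 113 and 105 in cjPGCLCs (-2.03 ± 0.20, edgeR adjusted p = 6.68e-07) and to 70.8 and 47.7 in somatic cells (-2.94 ± 0.22, edgeR adjusted p = 4.51e-08) with ActA. Without ActA it went from 529 and 541 to 203 and 200 (-1.42 ± 0.19, edgeR adjusted p = 1.84e-05) and to 131 and 101 (-2.25 ± 0.21, edgeR adjusted p = 3.24e-07). None of the NANOG and ZFP42 calls was lost when a library was left out. POU5F1 was reduced less. It stood at 1380 and 1490 in cjPGCLCs with ActA, against 2915 and 3035 in pre-ME (-1.05 ± 0.17, edgeR adjusted p = 9.92e-05), and at 1262 and 1184 in somatic cells (-1.29 ± 0.17, edgeR adjusted p = 1.55e-05). Without ActA it stood at 1381 and 1458 in cjPGCLCs, not called against 1645 and 1668 (-0.24, 95% interval -0.59 to 0.12, edgeR adjusted p = 0.284). In somatic cells without ActA it stood at 1287 and 1187 (-0.45 ± 0.17, edgeR adjusted p = 0.0415), a call lost when any 1 of the 4 libraries was left out (-0.52 to -0.42).

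SOX2, the pluripotency factor that primate PGCs are known to lack, was lowest of all conditions in cjPGCLCs. It went from 3378 and 3121 to 1094 and 1838 with ActA (-1.15 ± 0.25, edgeR adjusted p = 0.00132) and from 3329 and 3624 to 1100 and 1571 without it (-1.40 ± 0.25, edgeR adjusted p = 0.000368). Its level in cjPGCLCs was still 34.2% and 31.2% of that in cjPSCM cjiPSCs. In somatic cells with ActA it stood at 2799 and 3245, not called against pre-ME (-0.11, 95% interval -0.63 to 0.41, edgeR adjusted p = 0.738). Without ActA it fell to 2214 and 2282 in somatic cells (-0.66 ± 0.25, edgeR adjusted p = 0.043), which was lost when any 1 of the 4 libraries was left out (-0.73 to -0.61).

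SALL4 fell from its pre-ME level in all 4 comparisons, to means that were 135% to 236% of that in cjPSCM cjiPSCs. With ActA it was at 882 and 1442 in cjPGCLCs (-0.91 ± 0.19, edgeR adjusted p = 0.000831; -0.60 and still called without cjPGCLC replicate 1) and at 1100 and 1157 in somatic cells (-0.96 ± 0.19, edgeR adjusted p = 0.000587). Without ActA it was at 1664 and 2276 in cjPGCLCs (-0.52 ± 0.19, edgeR adjusted p = 0.0362) and at 1178 and 1201 in somatic cells (-1.26 ± 0.19, edgeR adjusted p = 6.71e-05). The change in cjPGCLCs without ActA was lost without either pre-ME library (-0.48 and -0.59) or cjPGCLC replicate 1 (-0.32), and was -0.78 without cjPGCLC replicate 2.

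LIN28A fell in all 4 comparisons as well. It was at 4211 and 5057 in cjPGCLCs with ActA (-0.92 ± 0.22, edgeR adjusted p = 0.00241) and 7282 and 7763 without it (-0.85 ± 0.22, edgeR adjusted p = 0.00491). In somatic cells it was at 6241 and 5392 with ActA (-0.60 ± 0.22, edgeR adjusted p = 0.031) and 6492 and 5995 without it (-1.14 ± 0.22, edgeR adjusted p = 0.000532). The third of these was lost when any 1 of the 4 libraries was left out (-0.72 to -0.50). LIN28B, by contrast, rose from the low level of pre-ME + ActA to 1742 and 1685 in cjPGCLCs (0.94 ± 0.17, edgeR adjusted p = 0.000264) and to 2073 and 2178 in somatic cells (1.24 ± 0.17, edgeR adjusted p = 2.14e-05). From pre-ME - ActA, where it had stood higher, it was not called in cjPGCLCs (1628 and 1726) or in somatic cells (2071 and 2208).

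UTF1 was nearly absent from somatic cells. It had 4 and 3 raw counts there with ActA, and 0 and 3 without it, where the count of 0 in replicate 1 allows a level of up to 0.627 CPM (3 counts, scaled to the reads of the library). Over both libraries, pre-ME exceeded somatic cells by a ratio of 17.3 with ActA (187 against 7 counts, 95% counting interval 8.22 to 43.6) and 32.3 without it (243 against 3 counts, 10.9 to 158), and edgeR called both (adjusted p = 6.95e-05 and 5.26e-05). In cjPGCLCs UTF1 stood at 22.0 and 25.6 with ActA (-2.05 ± 0.47 against pre-ME, edgeR adjusted p = 0.00187). Without ActA it stood at 43.3 and 56.7 (-0.92 ± 0.43), not called in the main fit (edgeR adjusted p = 0.0975). That change was called on the libraries of the comparison alone (-0.95, edgeR adjusted p = 0.0117) and with no filter on low counts (-0.98, edgeR adjusted p = 0.00761). DPPA4 fell in somatic cells without ActA, from 1053 and 1206 to 669 and 722 (-0.73 ± 0.19, edgeR adjusted p = 0.00473). In the main fit it was not called in the other 3 comparisons. On the libraries of the comparison alone it was called lower in somatic cells with ActA (-0.36, edgeR adjusted p = 0.00408). DPPA2 was called lower in somatic cells without ActA on 43 against 2 counts, a ratio of 8.58 for pre-ME over somatic cells with a counting interval of 2.24 to 73.1 (edgeR adjusted p = 0.0184). That call was lost without pre-ME replicate 2 (adjusted p = 0.08) or somatic replicate 1 (adjusted p = 0.112). Without somatic replicate 2, which left 0 counts of either gene in the condition, the fitted changes went to -7.29 for DPPA2 and -9.76 for UTF1. Such fitted values depend on the prior count and bound nothing, and both calls were kept.

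Against pre-ME + ActA, cjPGCLCs had 1 member higher and 7 lower (25.3% and 23.0% of all genes), with NANOG, ZFP42 and UTF1 beyond 2 on the log2 scale. Somatic cells with ActA had 1 higher and 6 lower (23.8% and 24.2%). Without ActA, 5 members were lower in cjPGCLCs (18.5% of all genes) and 9 in somatic cells (21.7%). No member was higher in either by edgeR, where 21.5% and 20.6% of all genes were, with 0 at an unadjusted p under 0.05 and 0 by DESeq2. The median change of the members was -0.98 in cjPGCLCs and -1.12 in somatic cells with ActA, and -0.69 and -1.20 without it, beside medians over all genes of 0.04, 0.01, 0.01 and 0.00. cjPGCLCs and somatic cells were compared with the same pre-ME libraries here. Between pre-ME and sorted cells the summed amnion-like and surface ectoderm markers went from 1262 to 2089 in pre-ME up to 9293 to 12248 in sorted cells, and all 7 tested were called higher in each of the 4 comparisons. Among the fibroblast markers 4 to 6 of 7 were called higher and 1 or 2 lower. All 5 tested endoderm markers were called higher in cjPGCLCs with ActA and without it, with medians of 6.26 and 6.07, and 3 and 2 in somatic cells, with medians of 2.31 and -0.20. Their summed level was 378 to 502 in pre-ME, 3465 to 8595 in cjPGCLCs and 2692 to 5355 in somatic cells, where FOXA1, FOXA2, CER1 and AFP had 3 counts or fewer. Of these in cjPGCLCs only CER1 did. The part of these markers in the values of the members was not tested.

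**Figure D4:**
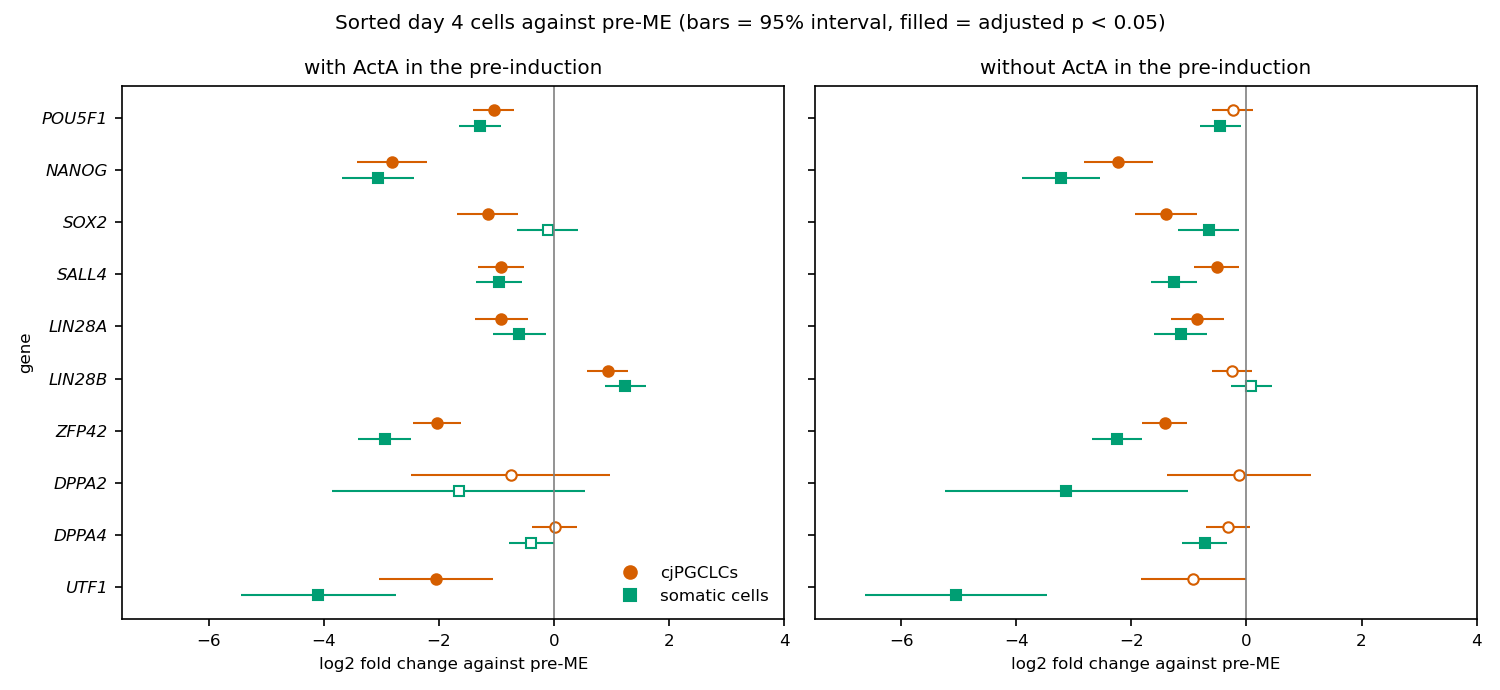
Fitted log2 fold change of each member in cjPGCLCs (circles) and somatic cells (squares) against the pre-ME they came from, with ActA on the left and without it on the right; bars are 95% intervals and filled symbols passed the test. NANOG and ZFP42 lie below -1.4 in all 4 comparisons, SOX2 with ActA lies at -1.15 in cjPGCLCs and -0.11 in somatic cells, and LIN28B passed the test only with ActA; UTF1 and DPPA2 in somatic cells rest on 0 to 4 counts per library.

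The comparison of cjPGCLCs with somatic cells of the same pre-induction asks which members the double-positive cells keep. With ActA, 1 member was higher and 1 lower, beside 3.68% and 1.16% of all genes. ZFP42 was higher in cjPGCLCs, at 113 and 105 against 70.8 and 47.7 (0.91 ± 0.23, edgeR adjusted p = 0.0327). SOX2 was lower, at 1094 and 1838 against 2799 and 3245 (-1.04 ± 0.25, edgeR adjusted p = 0.0225). Both calls rested on the full set of libraries. That of ZFP42 was lost without somatic replicate 2 (0.64) or either cjPGCLC library (0.85 and 0.95), and that of SOX2 without either somatic library (-1.14 and -0.93) or cjPGCLC replicate 1 (-0.71).

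Without ActA, 3 members were higher, beside 6.67% of all genes. ZFP42 stood at 203 and 200 against 131 and 101 (0.83 ± 0.21, edgeR adjusted p = 0.0179), and SALL4 at 1664 and 2276 against 1178 and 1201 (0.74 ± 0.19, edgeR adjusted p = 0.0189). UTF1 had 93 counts in cjPGCLCs and 3 in somatic cells, a ratio of 17.2 with a 95% counting interval of 5.69 to 84.7 (edgeR adjusted p = 0.00304), and this call was kept in all 4 fits that left out a library. With ActA the same ratio was 4.12 (44 against 7 counts, 1.84 to 10.8) and did not pass the test (edgeR adjusted p = 0.152). UTF1 was called there on the libraries of the comparison alone (edgeR adjusted p = 0.0291) and with no filter on low counts (edgeR adjusted p = 0.00482). No member was called lower without ActA (2.96% of all genes). There 1 member, SOX2, had an unadjusted p under 0.05 and was called by DESeq2, at 1100 and 1571 against 2214 and 2282 (-0.74 ± 0.25, edgeR adjusted p = 0.0804; -0.75 in DESeq2, adjusted p = 0.0437). SOX2 was also called on the libraries of this comparison alone (-0.75, edgeR adjusted p = 0.00648) and with no filter on low counts (-0.74, edgeR adjusted p = 0.000188). With replicate numbers fitted as blocks, though no label ties them, it was called as well (-0.76, edgeR adjusted p = 0.0186). ZFP42 lost its call without somatic replicate 2 (0.63) or either cjPGCLC library (0.81 and 0.83), and SALL4 without either somatic library (0.73 and 0.76) or cjPGCLC replicate 2 (0.49).

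POU5F1 and NANOG, the members that PGCs are known to keep, did not pass this test in either condition. POU5F1 was higher in each cjPGCLC library than in each somatic library, by 0.24 with ActA (95% interval -0.12 to 0.60, edgeR adjusted p = 0.589) and 0.22 without it (-0.14 to 0.58, edgeR adjusted p = 0.543). NANOG differed by 0.24 with ActA (-0.40 to 0.87, edgeR adjusted p = 0.822), where the libraries overlapped, and by 0.99 without it (0.29 to 1.70, edgeR adjusted p = 0.0752), where they did not. Without cjPGCLC + ActA replicate 2 the first value turned to -0.41, and without cjPGCLC - ActA replicate 1 the second was called at 1.33. DESeq2 also called the second (1.00, adjusted p = 0.0246). So did edgeR on the libraries of the comparison alone (0.99, adjusted p = 0.0295) and with no filter on low counts (0.99, adjusted p = 0.00031). DPPA4 was not called in the main fit. It was called on the libraries of each comparison alone, at 0.40 with ActA (edgeR adjusted p = 0.024) and 0.39 without it (edgeR adjusted p = 0.0246).

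None of the members was called by edgeR in the test of whether sorted populations differed by an amount that depended on ActA, in which 0.0633% of all genes were called. There 1 member, SALL4, had an unadjusted p under 0.05, and 0 were called by DESeq2. Without ActA, 8 of the 10 members had both cjPGCLC libraries above both somatic libraries, beside 28.1% of all tested genes, and 2 (SOX2 and LIN28B) both below, beside 29.6%. With ActA the numbers were 4 and 3, beside 27.6% and 27.4%. The neural list had no call of 5 tested with ActA, and 2 of 5, each lower in cjPGCLCs, without it. The sum of the 7 found was 14460 to 18344 in cjPGCLCs and 25265 to 27539 in somatic cells with ActA, and 10855 to 12978 against 21484 to 23825 without it. SOX1 and NEUROG2 had 3 counts or fewer in each of these conditions. Nearly all of the sum was NES, an intermediate filament gene that is not confined to neural cells (mean 15782 against 25872 with ActA, not called, edgeR adjusted p = 0.0986, and 11745 against 22147 without it, -0.90 ± 0.23, edgeR adjusted p = 0.0186). Their part in the SOX2 values was not tested.

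Sorted cells of one kind were also compared between the pre-inductions. In cjPGCLCs 2 members were lower with ActA, beside 1.16% of all genes. SALL4 stood at 882 and 1442 with ActA and 1664 and 2276 without it (-0.77 ± 0.19, edgeR adjusted p = 0.0393), and ZFP42 at 113 and 105 against 203 and 200 (-0.88 ± 0.20, edgeR adjusted p = 0.0258). LIN28A stood at 4211 and 5057 against 7282 and 7763, which edgeR did not call (-0.70 ± 0.22, adjusted p = 0.107) and DESeq2 did (-0.70, adjusted p = 0.044). The ZFP42 call was lost when any 1 of the 4 libraries was left out (-0.94 to -0.83). The SALL4 call was lost without cjPGCLC + ActA replicate 1 (-0.45) or either cjPGCLC - ActA library (-0.97 and -0.52), and was -1.16 without cjPGCLC + ActA replicate 2. No member was called higher (1.37% of all genes), with 0 at an unadjusted p under 0.05 and 0 by DESeq2. The summed fibroblast markers were 12472 to 16786 in cjPGCLCs with ActA and 4873 to 7050 without it, with 4 of 7 called, each higher, and their part in these values was not tested. In somatic cells no member was called in either direction, beside 0.0190% of all genes higher and 0.00633% lower. NANOG (158 and 203 with ActA, 92.2 and 97.5 without it) and ZFP42 (70.8 and 47.7 against 131 and 101) had an unadjusted p under 0.05, and DESeq2 called 0 members.

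Ratios between 2 members within a library do not depend on its depth. The ratio of SOX2 to POU5F1 counts was 2.58 and 2.61 in TESR cjiPSCs and 1.5 and 1.73 in cjPSCM cjiPSCs. It was lower in pre-ME + ActA (1.16 and 1.03 from cjPSCM) than in pre-ME - ActA (2.02 and 2.17). In cjPGCLCs it was 0.792 and 1.23 with ActA and 0.797 and 1.08 without it, and in somatic cells 2.22 and 2.74, and 1.72 and 1.92. Each cjPGCLC library therefore lay below each somatic library, while those with ActA overlapped their pre-ME.

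The ratio of LIN28A to LIN28B counts set the sorted cells apart from the earlier stages, apart from 2 libraries. It was 2.42 and 3.0 in cjPGCLCs with ActA, 4.47 and 4.50 without it, 3.01 and 2.48 in somatic cells with ActA and 3.13 and 2.72 without it. In pre-ME it was highest from cjPSCM with ActA, at 10.3 and 9.25, and 6.07 to 7.02 in the other 3 conditions. In cjiPSCs the replicates disagreed, with 4.20 and 8.16 in TESR and 4.13 and 8.19 in cjPSCM. The ratio of SALL4 to POU5F1 was 0.303 to 0.625 in the 4 cjiPSC libraries and 1.36 to 1.76 in the 4 libraries of pre-ME without ActA.

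**Figure D5:**
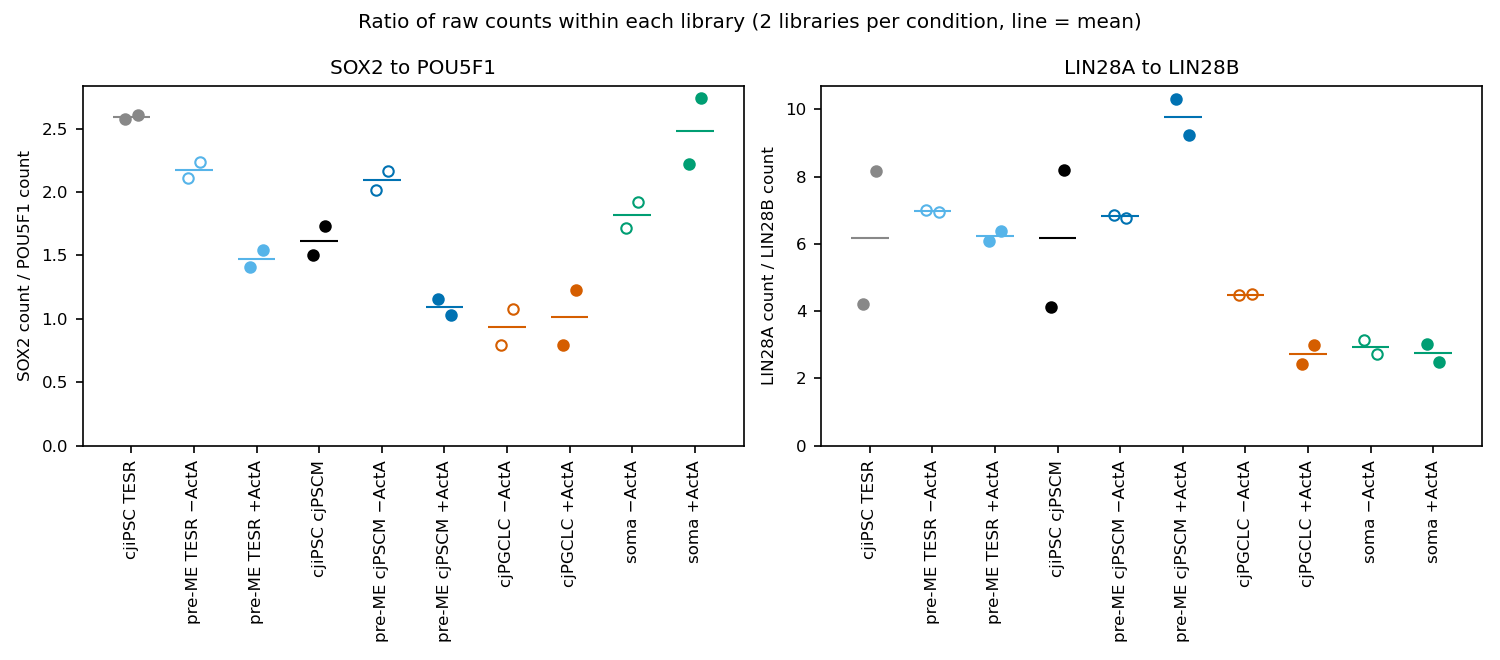
Ratio of raw counts within each library by condition, SOX2 over POU5F1 on the left and LIN28A over LIN28B on the right, on linear axes from 0; points are libraries and lines means of 2. SOX2 over POU5F1 is 0.792 to 1.23 in the 4 cjPGCLC libraries and 1.72 to 2.74 in the 4 somatic libraries, and LIN28A over LIN28B is 9.25 and 10.3 in cjPSCM pre-ME with ActA.

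The LIN28 genes act on let-7, and 15 genes of this axis (targets, cofactors and processing enzymes of let-7) were all measured. Between the media 2 were higher and 8 lower in cjPSCM, beside 18.1% of all genes each way. The list median was -0.50 beside 0.00 over all genes. HMGA2, a classical let-7 target, fell with the LIN28 genes (-1.65 ± 0.135, edgeR adjusted p = 1.07e-07), as did IGF2BP1, another let-7 target (-0.83 ± 0.13, edgeR adjusted p = 9.51e-05), and DICER1, which processes microRNAs (-1.15 ± 0.16, edgeR adjusted p = 4.12e-05). In TESR pre-ME 1 was higher and 6 lower with ActA (17.3% and 17.1% of all genes) and without it (17.4% and 19.2%). In cjPSCM pre-ME without ActA 2 rose and 3 fell (17.9% and 20.1%). With ActA 3 were called there, each higher (7.42% of all genes). HMGA2 rose in cjPSCM pre-ME with ActA (0.77 ± 0.13, edgeR adjusted p = 0.000698) while LIN28B fell. Between pre-ME and sorted cells 4 rose and 4 fell in cjPGCLCs with ActA, 3 and 2 without it, 4 and 2 in somatic cells with ActA and 5 and 2 without it. In cjPGCLCs with ActA, 4 of 15 each way is close to the 25.3% and 23.0% of all genes, which shows nothing particular to the list. The shares of all genes were 21.5% and 18.5% in cjPGCLCs without ActA. In somatic cells they were 23.8% and 24.2% with ActA and 20.6% and 21.7% without it. HMGA2 was lower in cjPGCLCs than in somatic cells, by 0.84 ± 0.13 with ActA (edgeR adjusted p = 0.00107) and 1.02 ± 0.13 without it (edgeR adjusted p = 7.72e-05). The levels of let-7 itself were not measured in these poly(A) libraries.

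Of 30 further genes of the pluripotency network, 24 were tested. Between the media 7 were higher and 7 lower in cjPSCM, beside 18.1% of all genes each way. KLF5 (3.67 ± 0.37, edgeR adjusted p = 1.05e-06), GDF3 (3.64 ± 0.44, edgeR adjusted p = 8.1e-06) and DPPA3 (5.30 ± 0.71, edgeR adjusted p = 2.12e-05) were higher, and SOX3, a close relative of SOX2, was lower (-2.90 ± 0.45, edgeR adjusted p = 9.3e-05). In pre-induction 7 rose and 6 fell in TESR with ActA (17.3% and 17.1% of all genes), and 6 and 6 without it (17.4% and 19.2%). In cjPSCM 3 rose and 6 fell with ActA (7.42% and 10.3%), and 11 and 4 without it (17.9% and 20.1%). KLF5 and GDF3 fell again there with ActA (-2.55 ± 0.34 and -3.11 ± 0.43, edgeR adjusted p = 9e-05 and 0.000123). Many of the 24 fell between pre-ME and sorted cells, where 18.5% to 24.2% of all genes fell and 20.6% to 25.3% rose. In cjPGCLCs 5 rose and 15 fell with ActA and 5 and 12 did without it, and in somatic cells 2 and 15, and 1 and 18. The list median was -0.89 and -0.85 in cjPGCLCs and -1.02 and -1.95 in somatic cells. NR5A2 (-2.81 ± 0.47, edgeR adjusted p = 0.000148) was among those that fell in cjPGCLCs with ActA, while KLF5 rose (2.33 ± 0.34, edgeR adjusted p = 4.06e-05).

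Against somatic cells, 4 of the 24 were called with ActA and 5 without it, each higher in cjPGCLCs, beside 3.68% and 6.67% of all genes. They included KLF4 (2.45 ± 0.31 and 3.22 ± 0.32, edgeR adjusted p = 0.000171 and 6.17e-06), KLF5 (2.85 ± 0.36 and 3.86 ± 0.37, edgeR adjusted p = 0.000178 and 4.66e-06), OTX2 (2.48 ± 0.48 and 3.13 ± 0.53, edgeR adjusted p = 0.00542 and 0.000898) and DPPA3 (4.05 ± 0.83 and 5.54 ± 1.01, edgeR adjusted p = 0.00792 and 0.00172). OTX2 is a factor of the primed epiblast. Of 16 relatives of the members from their own gene families, 14 were tested. SOX17, the SOX factor of primate PGCs, was higher in cjPGCLCs than in somatic cells, by 2.42 ± 0.47 with ActA (edgeR adjusted p = 0.00569) and 4.63 ± 0.53 without it (edgeR adjusted p = 2.53e-05), in the comparisons in which SOX2 was lower or not called. SALL3 was lower in cjPGCLCs in both, with -1.58 ± 0.30 and -1.0 ± 0.30 (edgeR adjusted p = 0.00445 and 0.0407). Among the relatives 2 were higher and 1 lower with ActA (3.68% and 1.16% of all genes) and 2 and 2 without it (6.67% and 2.96%). POU3F2, a POU factor of neural cells, was lower in cjPGCLCs without ActA (-1.72 ± 0.24, edgeR adjusted p = 0.000134). Between the media 4 relatives were higher and 5 lower, beside 18.1% of all genes each way. SALL3 fell in cjPSCM (-4.67 ± 0.475, edgeR adjusted p = 1.18e-06) and then rose in its pre-ME with ActA (3.92 ± 0.50, edgeR adjusted p = 5.23e-05) and without it (3.70 ± 0.495, edgeR adjusted p = 4.12e-05).

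For each member, the genes with the most similar profile were taken from 13241 tested genes with a symbol, by Pearson's r of log2(normalised count + 1) over the 10 condition means. These correlations share their libraries and 10 points leave room for many high values. For POU5F1 they were C19H1orf131 (0.979), SPPL2B (0.977) and DHX38 (0.971), and for NANOG TXNDC17 (0.968), MAX (0.964) and ANKRD1 (0.957). SOX2 was followed by ASPHD2 (0.919), GDAP1L1 (0.916) and VAMP5 (0.902), and SALL4 by ZGRF1 (0.943), CENPF (0.933) and MTCP1 (0.926). LIN28A resembled DEK (0.988), DNPEP (0.987) and POLE4 (0.981), and LIN28B FUNDC2 (0.977), SP4 (0.969) and YIPF1 (0.960). ZFP42 went with ENOPH1 (0.990), CPNE7 (0.983) and POC1A (0.980), DPPA4 with EIF3I (0.960), MRPL52 (0.952) and TMED5 (0.948), and UTF1 with DBNDD2 (0.978), NFE2L3 (0.965) and METTL26 (0.964). The scarce DPPA2 had UPP1 (0.922), COL19A1 (0.914) and SLC45A4 (0.913). No member was among another member's 3, since members were left out of the candidates. Between members the highest r was 0.852 for DPPA2 with UTF1, and the lowest was -0.891 for POU5F1 with LIN28B.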

How the data were processed

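Poly(A) RNA-seq libraries (NEBNext Ultra II RNA kit in the study's text) were processed by the authors with FastQC 0.11.8, STAR 2.7.0a, HTSeq 0.11 and DESeq2 on calJac4. The annotation release and the strand setting are not given in the sources used here. The authors deposited raw counts per gene, and a signal table of the same counts divided by DESeq2 size factors. HTSeq's rows that name no gene stayed out of library sizes, and reads with no feature were 10.6% to 23.2%.

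Raw counts were fitted with edgeR 4.0.16 (R 4.3.3; quasi-likelihood test, TMM, filterByExpr with a minimum count of 10), with 1 coefficient per condition, 20 libraries and 10 residual degrees of freedom. P-values were two-sided and adjusted by Benjamini-Hochberg over 15797 genes. The scripts were tested on simulated data. Ratios of low counts have exact 95% counting intervals. Python 3.11.15 with pandas 2.3.3, numpy 2.4.6, scipy 1.17.1 and matplotlib 3.10.9 was used for summaries.

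Members, picked by symbol, and lists were chosen with earlier results of these data known. Named were all members, at most 4 genes per list and comparison by smallest adjusted p, and the 3 most similar genes per member. Further marker genes were named by their levels. Some genes stand in 2 lists (SOX17, DPPA3, SOX3, POU3F2). Alternatives were DESeq2 1.42.0, edgeR scaled by size factors, a fit of all genes unfiltered, fits of each comparison on its own libraries, a replicate block and leaving out each library. In a RefSeq gene table of another assembly 21267 gene names were found, and it was used for names only. No sequence was analysed here.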

Additional observations from a re-analysis of the deposited data

Results flagged for a closer look

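The effect of ActA on NANOG in pre-ME differed between the media, by -2.436 on the log2 scale (cjPSCM minus TESR, edgeR adjusted p = 0.0114). NANOG was 1052 and 1106 with ActA and 117 and 119 without it in TESR, and 1406 and 1581 against 758 and 988 in cjPSCM.

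The change of NANOG on pre-induction without ActA differed between the media by 1.675 (edgeR adjusted p = 0.0133). This test shares its pre-ME - ActA libraries with the one before. The change of LIN28B on the same step differed by 0.9955 (edgeR adjusted p = 0.017).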

How the results depend on the processing

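Of the values of 10 members in 15 comparisons and 4 interactions, 101 were followed through the alternatives. These had an unadjusted edgeR p under 0.05 in the main fit, apart from a few picked by hand. Of the 101, 73 were called. The set was thus chosen by its outcome, and calls gained by values outside it do not enter the next counts. Numbers of members called per comparison, given further below, are over all 10. DESeq2 kept the side of the threshold for 94, size factors for 98, no filter for 88 (13 more passed) and the libraries of a comparison alone for 72. Of the called values, 44 were called in every fit that left out a library. Fitted on their own libraries alone, the number of members called went from 6 to 2 between the media, from 4 to 1 in cjPSCM pre-induction with ActA and from 8 to 1 without it. It went from 1 to 5 for ActA in TESR pre-ME, from 2 to 5 for cjPGCLCs against somatic cells with ActA and from 3 to 8 without it, and from 0 to 1 for ActA in somatic cells. The interaction of ActA with medium went from 1 to 4 and that of pre-induction without ActA with medium from 2 to 1. Without a filter the counts were 6 for cjPGCLCs against somatic cells without ActA, 1 for ActA in somatic cells, 2 for ActA with medium, and 1 and 5 for pre-induction with medium, with and without ActA. DESeq2 called 5 for cjPGCLCs against somatic cells without ActA and 2 for ActA with medium. The fits on a comparison's own libraries have fewer samples, and the calls lost between the media were POU5F1, LIN28A, DPPA2 and UTF1. Other causes were not tested. The share of all genes called is not given for these alternative fits or for the fits without 1 library. A shift in their counts of members therefore cannot be told apart from a shift over all genes.

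Leaving out 1 library gave 1 to 6 members in cjPSCM pre-induction with ActA, 4 to 8 without it, 2 for ActA in cjPSCM pre-ME, 0 to 1 for cjPGCLCs against somatic cells with ActA, 1 to 3 without it and 0 to 1 for ActA in cjPGCLCs. The interactions gave 0 to 1 (ActA with medium), 0 to 2 and 0 to 5 (pre-induction with medium, with and without ActA). NANOG in cjPGCLCs against somatic cells with ActA ranged from -0.4071 to 0.7272, the 1 of the 101 followed values that turned.

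The deviations of replicates with the same number correlated at r = -0.193 to 0.234 over the comparisons, highest for ActA in cjPGCLCs (0.234), cjPSCM pre-ME (0.227) and TESR pre-ME (0.222). No label ties the numbers to a shared day or culture and r was not above 0.1 throughout, so the numbers were not taken as pairs. With a replicate block 98 of 101 values kept their side. SOX2 was then called in TESR pre-induction with ActA (-0.5184, adjusted p = 0.0431) and against somatic cells without ActA (-0.7574, adjusted p = 0.0186), and DPPA4 was lost in cjPSCM pre-induction without ActA (-0.4701, adjusted p = 0.0566).

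Depth limits DPPA2 everywhere and UTF1 in somatic cells.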
